A study of Mus musculus with 6 samples.

Results

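Annexins and S100 proteins are calcium-responsive proteins, and 9 of their genes that are not the granulocyte S100 genes are described here: the annexins *Anxa1*, *Anxa2*, *Anxa3*, *Anxa4* and *Anxa5*, and the S100 genes *S100a4*, *S100a6*, *S100a10* and *S100a11*. They were taken by symbol from the deposited tables, which hold 23424 genes, and all 9 were found in every table and passed the count filter. The data are bulk RNA-seq of tumor-associated macrophages (TAMs) from melanomas grown by intradermal injection of YUMM1.7, a mouse melanoma cell line. The hosts were untreated wild-type (WT) C57Bl/6J females that were 8 weeks old when the tumors were started, and the tumors were collected on day 21. Live, lineage-negative CD45+CD11b+ cells were sorted into an F4/80high and an F4/80low subset, with 3 libraries of each subset from 3 independent experiments on 10 pooled tumors, so that no library is 1 animal.

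Annexins bind acidic membrane phospholipids when calcium rises, and they take part in membrane repair, vesicle traffic and the handling of dying cells. S100 proteins are small EF-hand proteins that form dimers and bind target proteins, several of them annexins: S100A10 holds annexin A2 in a complex at the cell surface that binds plasminogen activator, and S100A11 binds annexin A1. In myeloid cells, annexin A1 is known as a glucocorticoid-induced protein that acts through formyl peptide receptors, and monocytes and macrophages are known to express several members of both families.

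The depth was 16045281 to 43604373 counts per library. Replicate 3 of both subsets forms batch 2 and replicates 1 and 2 form batch 1, as the study draws them, so batch 2 cannot be told apart from that single experiment. In batch 2, the features *Gm23935*, *Lars2* and *Gm15564* took 16.1% to 17.1% of the counts, against 0.378% to 0.609% in batch 1. The sorted marker *Adgre1*, which encodes F4/80, was higher in F4/80high in 3 of 3 pairs, with a log2 fold change of 0.67 ± 0.30 (SE, adjusted p = 0.665 by edgeR's quasi-likelihood test). Of 10 macrophage markers, 4 (*C1qa*, *C1qb*, *C1qc* and *Mertk*) had an unadjusted p under 0.05, all higher in F4/80high, against 7.59% of all genes tested. The summed level of these 10 genes was 4450 to 15761 CPM in F4/80high and 2299 to 7986 CPM in F4/80low, so macrophage transcripts were present in all 6 libraries. CPM here means counts scaled to the library size after TMM correction.

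The members lie on several chromosomes, but all 4 S100 members are on chromosome 3, in GRCm38 coordinates of GENCODE M21. *S100a4* (chr3:90603771-90606045) and *S100a6* (chr3:90612882-90624181) sit in the main S100 cluster, and *S100a11* (chr3:93520488-93526287) and *S100a10* (chr3:93555080-93564643) lie close to each other, 2824767 bases beyond its last gene, *S100a9*. The annexin members are dispersed: *Anxa1* on chr19:20373428-20390944, *Anxa2* on chr9:69453620-69491795, *Anxa3* on chr5:96793339-96845966, *Anxa4* on chr6:86736840-86793584 and *Anxa5* on chr3:36448923-36475894. The M21 annotation places a non-coding gene on the opposite strand over *Anxa1*, *Anxa2* and *Anxa4*, and a coding gene model, *Gm42674*, on the same strand over *S100a4*. On the same strand, *Mir3109*, *Gm42603* and *Mir7009* lie over *Anxa2*, *Anxa3* and *Anxa5*. The strand setting of the counting is not given in the sources used here, so reads of the opposite-strand pairs cannot be told apart. For the same-strand pairs, no strand setting would separate the reads, and how shared reads were counted is not given.

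RefSeq promoter entries (GRCm38.p6, 250 bases before to 50 after a RefSeq transcript start) were found for 7 of the 9 members. They were searched on both strands for TATAAA, the core of the TATA box, which 13.6% of all 32851 promoter entries hold, and for TGANTCA, the site type of AP-1, which 7.81% hold. No match of one overlapped a match of the other in the members. TATAAA was found in *Anxa1*, *Anxa2* and *S100a4*, and TGANTCA in *Anxa2* and, at 2 places, in *S100a11*. Neither was found in *Anxa4*, *Anxa5* or *S100a6*, and *Anxa3* and *S100a10* had no entry. Estimates lay below 0 in F4/80high for *Anxa5* and *S100a6* as well as for the 4 members with a match. A link between matches and estimates was not tested. The stretches below are shown because they hold matches in these 4 members. They are given 5′ to 3′ on the gene's strand, with the matched letters in capitals. They cover chr3:93520346-93520486 (plus strand) for *S100a11*, chr9:69453573-69453613 (plus) for *Anxa2*, chr3:90603720-90603765 (plus) for *S100a4* and chr19:20390686-20390715 (minus) for *Anxa1*.
S100a11: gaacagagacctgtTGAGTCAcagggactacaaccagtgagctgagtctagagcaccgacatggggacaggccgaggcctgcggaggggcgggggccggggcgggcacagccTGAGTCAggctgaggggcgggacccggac
Anxa2: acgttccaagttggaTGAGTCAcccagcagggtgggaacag
S100a4: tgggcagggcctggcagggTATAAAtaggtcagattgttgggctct
Anxa1: cagttcatatccTATAAAatcaggagtcca
Counted to the RefSeq start of each promoter entry, the S100a11 matches begin 136 and 38 bases before it, the Anxa2 match shown 95 bases, and the TATAAA of S100a4 and Anxa1 31 and 32 bases. The M21 gene starts given above differ: from these, the Anxa2 match begins 32 bases before the start, and the Anxa1 match begins 241 bases after it, within the M21 gene. A match is a string of letters and not a site shown to be bound.

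The first comparison asked whether the members differed between the F4/80high and F4/80low subsets. None of the 9 was called by edgeR with a batch term (a call needed an adjusted p under 0.05 and more than 1 log2 unit of change), and the share called among all 14630 genes tested was 0%. Without adjustment, 2 of 9 members, *S100a6* and *S100a11*, had a p under 0.05, against 1111 genes or 7.59% of all, and both were lower in F4/80high, as were 633 genes or 4.33% of all. The median log2 fold change of the 9 was -0.45, against 0.009 over all genes tested. Of the members, 7 had an estimate below 0, as had 7203 of the 14630 genes. The p-values measure the spread between these libraries, and in bulk samples fewer cells of a type and less RNA per cell cannot be told apart.

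*S100a11*, which encodes the annexin A1-binding S100A11, had the lowest estimate of the members. Its level in F4/80high was 334 CPM in replicate 1, 149 in replicate 2 and 100 in replicate 3, and in F4/80low 438, 458 and 221 in the same order. Every F4/80high library was below its F4/80low counterpart, but the subsets overlapped, since F4/80high replicate 1 lay above F4/80low replicate 3. The log2 fold change was -0.98 ± 0.30 (SE), which is 1.97-fold lower in F4/80high (unadjusted p = 0.0106, adjusted p = 0.525 by edgeR). With the experiment as a block, edgeR gave -1.05 ± 0.25 (adjusted p = 0.135) and called 0.519% of all genes and no member, and DESeq2 with the same block gave -1.05 (adjusted p = 0.00335) and called *S100a11* alone of the 9, against 2.42% of all genes. DESeq2 with the batch term called none of the 9, against 1.03% of all genes, with an adjusted p of 0.109 for *S100a11*. Over all alternatives, its adjusted p ran from 0.00335 to 1. With 1 library left out, the log2 fold change ran from -1.40 (without F4/80high replicate 1) to -0.75 (without F4/80high replicate 2).

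*S100a6* encodes calcyclin, which binds the calcyclin-binding protein encoded by *Cacybp*. It was at 261, 172 and 101 CPM in replicates 1, 2 and 3 of F4/80high, and at 278, 374 and 165 CPM in those of F4/80low. The pair of replicate 1 differed little, by -0.09 on the log2 scale, and the pairs of replicates 2 and 3 by -1.12 and -0.72. The edgeR log2 fold change was -0.63 ± 0.25 (SE, unadjusted p = 0.0308, adjusted p = 0.618), and the subsets overlapped.

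*S100a4*, which encodes the protein that binds non-muscle myosin IIA, was the least abundant member by these counts, at 92 to 471 per library. The gene model *Gm42674* lies over it on the same strand, and whether its count misses reads for that reason was not tested. *S100a4* was at 8.46, 5.83 and 9.95 CPM in F4/80high and at 8.04, 11.6 and 24.1 CPM in F4/80low. The highest library was F4/80low replicate 3, and the pairs differed by 0.07, -0.98 and -1.27 on the log2 scale. The log2 fold change was -0.72 ± 0.35 (SE, adjusted p = 0.687 by edgeR).

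*S100a10*, whose product lacks calcium binding and serves as the partner of annexin A2, was at 229, 205 and 94.8 CPM in F4/80high and at 211, 274 and 123 CPM in F4/80low. Its pairs differed by 0.12, -0.42 and -0.37. The log2 fold change of -0.23 ± 0.22 (SE, adjusted p = 0.816 by edgeR) was within the spread between libraries.

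**Figure D1:**
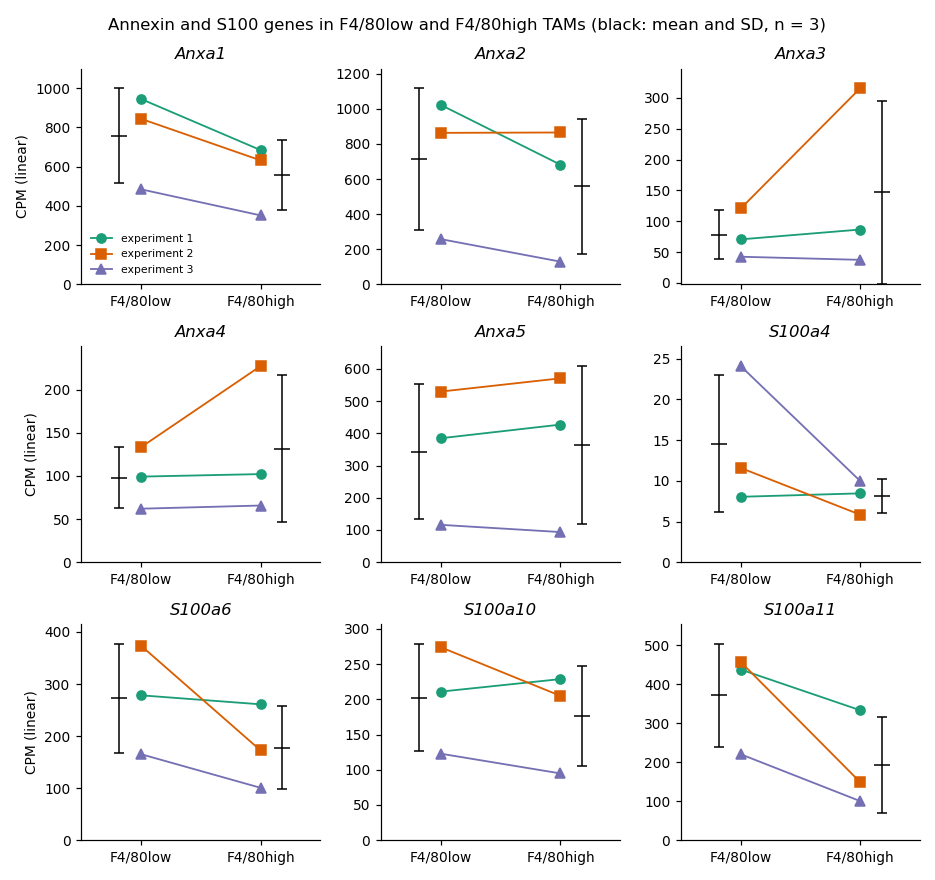
Level of each member in F4/80low and F4/80high TAMs in CPM on a linear axis, with 1 point per library, lines joining the libraries of an experiment, and black bars for the mean and SD of 3 libraries. *Anxa1*, *S100a6* and *S100a11* slope down in all 3 experiments, and the ranges of the subsets overlap for every gene.

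Among the annexins, *Anxa1* showed the most even difference. It was at 684, 632 and 351 CPM in F4/80high and at 945, 844 and 484 CPM in F4/80low. The pairs differed by -0.47, -0.42 and -0.46 on the log2 scale, so the difference between subsets was of one size in each experiment, while the level itself was lower in replicate 3 of both subsets. The log2 fold change was -0.45 ± 0.21 (SE), or 1.36-fold lower in F4/80high (unadjusted p = 0.0586, adjusted p = 0.680 by edgeR). With the experiment as a block, the edgeR unadjusted p was 0.0281 and the adjusted p 0.416, and 4 of 9 members (*Anxa1*, *Anxa2*, *S100a6* and *S100a11*) then had an unadjusted p under 0.05, against 9.92% of all genes.

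*Anxa2*, the heavy partner of the S100A10 complex, was at 682, 865 and 129 CPM in F4/80high and at 1023, 863 and 257 CPM in F4/80low. The pair of replicate 2 was at 0.00, while those of replicates 1 and 3 were at -0.58 and -1.0. The log2 fold change was -0.52 ± 0.25 (SE, adjusted p = 0.685 by edgeR) and -0.28 without replicate 3 of both subsets.

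*Anxa3* and *Anxa4*, less studied annexins that bind phospholipid like the others, had estimates above 0. *Anxa3* was at 86.6, 316 and 37.4 CPM in F4/80high and at 70.7, 121 and 42.5 CPM in F4/80low. *Anxa4* was at 102, 227 and 65.7 CPM in F4/80high and at 99.2, 133 and 62.0 CPM in F4/80low. For both genes, F4/80high replicate 2 was the highest of the 6 libraries, and the sign of the estimate turned without it. The log2 fold change of *Anxa3* was 0.67 ± 0.48 (SE, adjusted p = 0.746 by edgeR) and became -0.19 ± 0.29 without that library. That of *Anxa4* was 0.37 ± 0.32 (SE, adjusted p = 0.793 by edgeR) and became -0.11 ± 0.25 in a fit that keeps the F4/80low partner of that library, while its 3 pairs were at 0.04, 0.77 and 0.08.

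*Anxa5*, whose product is known for binding phosphatidylserine on dying cells, was at 427, 571 and 93.6 CPM in F4/80high and at 385, 530 and 116 CPM in F4/80low. Its log2 fold change was -0.02 ± 0.25 (SE, adjusted p = 0.994 by edgeR), with the pairs at 0.15, 0.11 and -0.31, and its sign turned with library size alone (0.02), with genes of all biotypes (0.01) and with several libraries left out.

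By experiment, *Anxa1*, *S100a6* and *S100a11* were lower in F4/80high in all 3 pairs (3 of 9 members, against 15.9% of all genes), and *Anxa4* was higher in all 3 pairs, so 4 of 9 kept one direction, against 31.9% of all genes. No member had subsets that did not overlap, against 2.91% of all genes that lay lower and 2.30% that lay higher in every F4/80high library. The experiments were unlike each other: the median pair difference of the 9 members was 0.04 in replicate 1, -0.42 in replicate 2 and -0.46 in replicate 3, against 0.01, -0.02 and 0.00 over all genes. In replicate 1, 5 of 9 members were higher in F4/80high and the 9 differences spanned 0.88. In replicate 2, 4 were higher, and the span of 3.01 ran from *S100a11* at -1.62 to *Anxa3* at 1.39. In replicate 3, only *Anxa4* was higher, by 0.08.

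**Figure D2:**
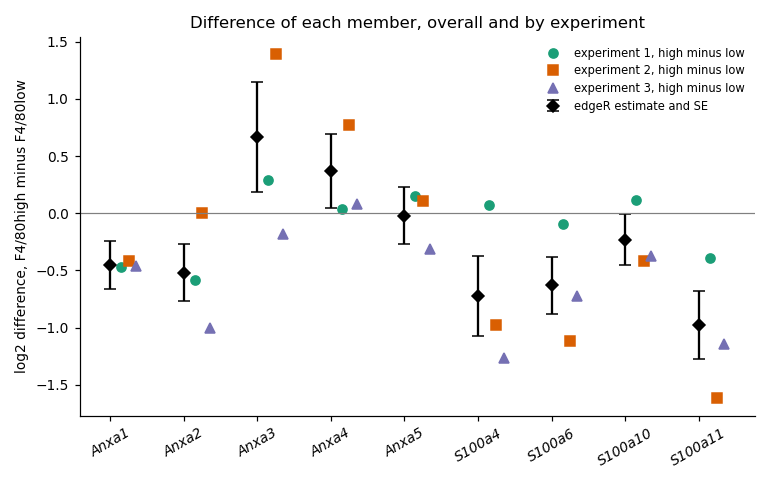
Log2 difference between F4/80high and F4/80low for each member, with the edgeR estimate and its SE as black diamonds and the within-experiment differences in log2 CPM as colored points. The points of *Anxa1* lie together between -0.47 and -0.42, while those of *Anxa3* run from -0.18 to 1.39 and those of *S100a11* from -1.62 to -0.39.

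Markers of other cells differed between the subsets too, in both directions. Of 10 neutrophil markers, a list that includes *S100a8* and *S100a9*, 8 had an unadjusted p under 0.05, all lower in F4/80high. Over all genes tested, 7.59% passed that threshold and 4.33% passed it as lower. The 10 markers summed to 754 to 2148 CPM in F4/80high against 1536 to 4911 CPM in F4/80low. Of 8 monocyte markers 6 were lower at that threshold (2125 to 5179 against 2824 to 9025 CPM), as were 6 of 8 eosinophil markers (93.8 to 187 against 271 to 621 CPM). *Ly6g*, the defining neutrophil marker, was at 1.19 to 4.62 CPM in F4/80high and 1.48 to 8.89 CPM in F4/80low. Fibroblast markers summed to 451 to 1542 CPM in F4/80high and 1066 to 1908 CPM in F4/80low, with 1 of 7 lower at that threshold, and the 3 melanoma markers tested to 19.6 to 168 and 13.2 to 106 CPM. Nearly all of the melanoma sum was *Mitf* (16.5 to 167 and 11.4 to 104 CPM), which was higher in F4/80high at that threshold (log2 fold change 0.64 ± 0.23, SE, unadjusted p = 0.0192, adjusted p = 0.553 by edgeR), while *Pmel* and *Sox10* were at 0.233 to 1.82 CPM and *Mlana* had 1 count in all. Of 7 dendritic cell markers 1 was lower, and of 8 T and NK cell markers 1 was higher, at that threshold. All 8 T and NK cell markers had estimates above 0, but 0 of them were higher in F4/80high in all 3 pairs. All 7 mast cell and basophil markers had estimates below 0, with 3 of them lower in all 3 pairs. Estimates also lay below 0 for all 7 fibroblast, all 6 erythroid and 6 of 7 dendritic cell markers, and above 0 for 4 of 6 B and plasma cell markers. No marker on these lists with a row was at 0 in all 6 libraries. The part of these cells in the members' differences was not tested.

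The second comparison set batch 2 against batch 1, and here more members passed the test than between subsets. Of 9 members, 7 were called, all lower in batch 2, against 38.1% of all genes called in either direction and 20.2% called lower. This test takes 4 libraries against 2 as independent, although batch 2 is 1 experiment. Its p-values are therefore too small for a comparison of experiments. *Anxa2* and *Anxa5* had the lowest estimates, at -2.21 ± 0.29 (SE, adjusted p = 0.000385 by edgeR) and -2.19 ± 0.29 (adjusted p = 0.000396), which is 4.64-fold and 4.57-fold lower. *Anxa3* was at -1.76 ± 0.55, and *Anxa4*, *S100a6*, *S100a10* and *S100a11* were between -1.14 and -1.04. *Anxa1*, at -0.90 ± 0.23 (adjusted p = 0.0116 by edgeR), passed on p but not on size. *S100a4* did not pass, with an estimate of 0.91 ± 0.37 (adjusted p = 0.0740) that became -0.13 with library size alone.

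The scaling matters for this comparison, since the median over all genes was -0.35 with TMM, -0.16 with RLE size factors and -1.37 with library size alone. The median of the members was -1.11, -0.92 and -2.13 under the same scalings, so it lay below that of all genes in each, and 4 members were called with RLE size factors. Without F4/80high replicate 3 or F4/80low replicate 3 only 2 members were called, and 3 when F4/80low replicate 2 was left out. A test of whether the subset difference changed with the batch gave no gene with an adjusted p under 0.05 (0% of all) and 587 with an unadjusted p under 0.05 (4.01%), of which 0 were members. The SE of that term was 0.55 to 1.01 for the members, so changes of that size between batches, and larger ones too, could have gone undetected.

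**Figure D3:**
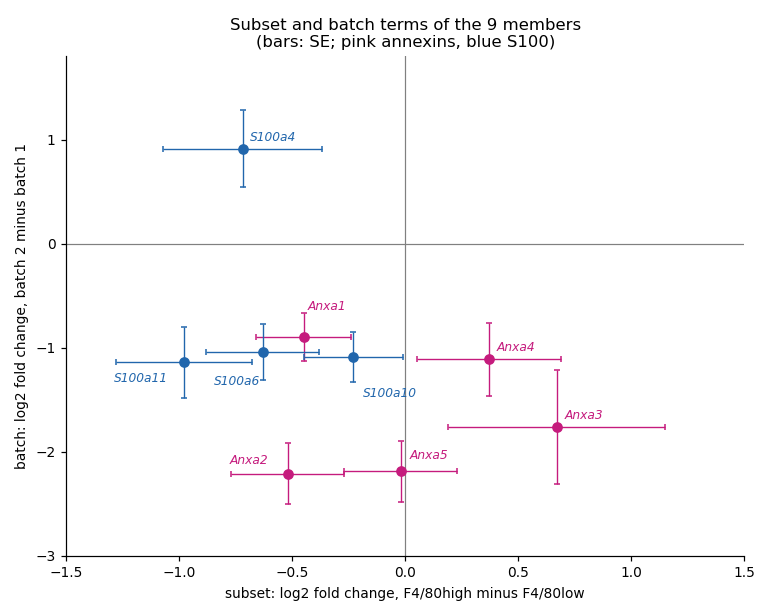
Log2 fold change of each member between subsets (horizontal) and between batches (vertical), with SE bars, annexins in pink and S100 genes in blue. With TMM scaling, 8 of 9 members lie below 0 on the batch axis, down to -2.21, while the subset axis runs from -0.98 to 0.67.

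Levels were compared between genes per length, as TPM over the protein-coding genes tested, because *Gm23935*, *Lars2* and *Gm15564* took 73.1% to 74.7% of the TPM of all features in batch 2. *S100a11* had the highest mean at 1758 TPM, followed by *Anxa1* (790), *Anxa5* (642), *Anxa2* (551), *S100a6* (520) and *S100a10* (493). *Anxa3* (97.2), *Anxa4* (78.9) and *S100a4* (55.2) formed a lower group, with the place of *S100a4* subject to its overlap with *Gm42674*. *S100a11* lay above *Anxa1* in 6 of 6 libraries and *S100a10* above *Anxa3* in 6 of 6. The gap between *S100a10* and *Anxa3* was the only one between neighbors in the order that was larger than the SD over libraries, at 396 TPM against 229. Neighbors within the middle group changed places between libraries: *Anxa2* was above *S100a6* in 2 of 6. The order held for the means over all features too.

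The ratio of *S100a10* to *Anxa2*, whose proteins share a complex, needs no scaling between libraries. Per kilobase it was 1.03, 0.729 and 2.26 in replicates 1, 2 and 3 of F4/80high, and 0.635, 0.977 and 1.47 in those of F4/80low. In both subsets the highest ratio was in replicate 3. The mean log2 ratio was 0.26 ± 0.84 (SD, n = 3) in F4/80high and -0.04 ± 0.60 (SD, n = 3) in F4/80low. The difference of 0.30 had a two-sided exact permutation p of 0.6, where 0.1 is the smallest p that 3 against 3 allows. That test shuffled the libraries across experiments and so left out the pairing. The pairs differed by 0.70, -0.42 and 0.62, and without F4/80high replicate 3 or F4/80low replicate 1 the difference was -0.160 and -0.004.

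The other genes of both families with a row gave 16 genes, 5 annexins and 11 S100 genes, with 4 further listed names not analysed here, and none was called by edgeR with the batch term (0% of all genes). Of these, 2 had an unadjusted p under 0.05: *S100a8* and *S100a9*, which encode the subunits of calprotectin of neutrophils and monocytes. *S100a8* was at 342, 118 and 70.4 CPM in F4/80high and at 723, 305 and 134 CPM in F4/80low. Its log2 fold change was -1.08 ± 0.43 (SE, adjusted p = 0.622 by edgeR). *S100a9* was at 512, 156 and 111 CPM in F4/80high and at 1102, 432 and 213 CPM in F4/80low, with -1.11 ± 0.46 (SE, adjusted p = 0.636 by edgeR). Both were lower in F4/80high in all 3 pairs, and both were called with the block, at adjusted p = 0.0485 and 0.0447 by edgeR, a fit that called 0.519% of all genes. *S100a8* was not called with RLE size factors and the block (adjusted p = 0.0531 by edgeR). The estimates moved when a single library was left out, in fits that keep the partner of that library. Without F4/80low replicate 1 they were -0.63 for *S100a8* and -0.62 for *S100a9*, and without F4/80high replicate 1 they were -1.60 and -1.70. Without F4/80high replicate 2 both were at -0.76. No fit left out replicate 1 of both subsets, so a dependence on that experiment was not tested. Over the alternatives, the adjusted p ran from 3.22e-05 to 1 for *S100a8* and from 1.18e-05 to 1 for *S100a9*, the lowest being DESeq2 with the block. *S100a11* was in the same range of log2 fold change but its pairs were more spread than those of *S100a8*, at -1.08, -1.37 and -0.92.

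Among the rest, *Anxa6* (-0.24 ± 0.24, SE), *Anxa7* (-0.15 ± 0.21) and *Anxa11* (-0.16 ± 0.37) had small estimates by edgeR, as had *S100a1* (0.44 ± 0.31), *S100a13* (0.01 ± 0.26) and *S100a16* (0.01 ± 0.53). *Anxa8* was the only one of the 16 whose subsets did not overlap, where 2.91% of all genes lay lower and 2.30% higher without overlap. It was at 1.01, 0 and 0.649 CPM in F4/80high and 1.08, 3.27 and 1.83 CPM in F4/80low, so the subsets were only 1.01 against 1.08 CPM apart, and F4/80high replicate 2 held 0 counts. *Anxa9* was at 3.23, 5.09 and 16.3 CPM in F4/80high and 3.42, 3.44 and 3.54 CPM in F4/80low. *S100b* ranged from 0.325 to 5.13 CPM and *S100g* from 0 to 0.799 CPM. *S100a3*, *S100a5*, *S100a7a* and *S100a14* had at most 20 counts in any library, too few for a fold change.

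On chromosome 3, nearly silent genes lay next to the members *S100a4* and *S100a6*, while *S100a8* and *S100a9*, and *S100a11* and *S100a10*, were abundant in adjacent positions of the order. *S100a5*, which lies between *S100a4* and *S100a6*, had a mean of 0.653 TPM, and *S100a3*, upstream of *S100a4*, had 0.10 TPM. *S100a4* itself was at 31.3 to 65.4 TPM in batch 1 and 42.1 to 94.4 TPM in batch 2, and *S100a6* at 396 to 901 and 182 to 277 TPM. *S100a8* and *S100a9* had means of 1325 and 2626 TPM. *S100a7a*, between *S100a6* and *S100a8*, was at 0.245 TPM.

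**Figure D4:**
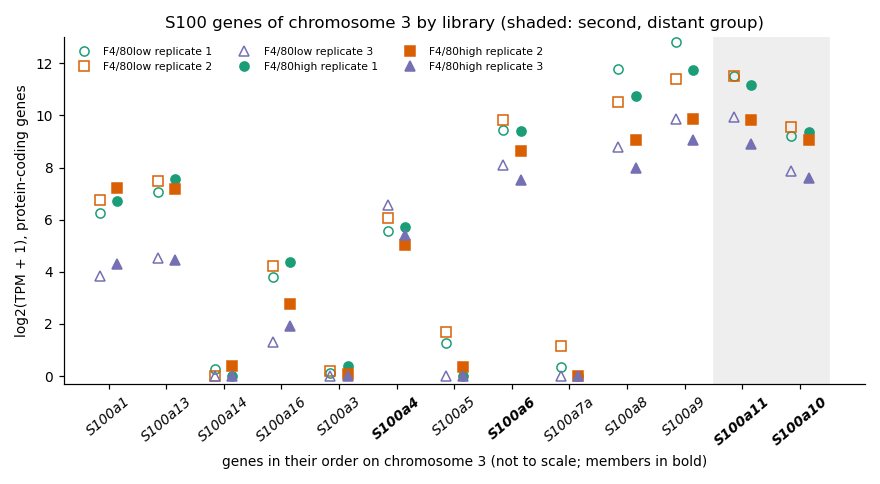
Level of 13 S100 genes of chromosome 3 in their order on the chromosome (not to scale), as log2(TPM + 1) over protein-coding genes, with filled points for F4/80high and open points for F4/80low and 1 color for each replicate. *S100a6*, *S100a8*, *S100a9*, *S100a10* and *S100a11* are at means of 493 TPM or more, while *S100a3*, *S100a5*, *S100a7a* and *S100a14* have means of at most 0.653 TPM.

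Binding partners, receptors and plasminogen-system genes were given by a list of 21 genes, of which 20 had a row. None was called by edgeR with the batch term (0% of all genes) or with the block, and 3 had an unadjusted p under 0.05, of which 2 were lower and 1 higher in F4/80high, against 7.59% of all genes at that threshold. *Fpr2*, a formyl peptide receptor that binds annexin A1, was at 20.0, 6.30 and 64.9 CPM in F4/80high and at 36.8, 20.1 and 110 CPM in F4/80low. Its log2 fold change was -1.0 ± 0.42 (SE, adjusted p = 0.638 by edgeR), lower in all 3 pairs. With the block, edgeR gave -1.10 with an adjusted p of 0.130, and DESeq2 called it alone of the 20, against 2.42% of all genes, with an adjusted p of 0.00587, the lowest over the alternatives, which ran up to 1. *Fpr1*, the related receptor, was at -0.50 ± 0.48 (SE) by edgeR, with its pairs at -1.39, -0.43 and 0.82.

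The plasminogen activator *Plau* was at 6.31, 12.0 and 91.4 CPM in F4/80high and at 3.49, 7.03 and 39.5 CPM in F4/80low. It was higher in F4/80high in all 3 pairs, with a log2 fold change of 0.94 ± 0.36 (SE, adjusted p = 0.601 by edgeR). With the block, *Plau* was at 0.95 in edgeR (adjusted p = 0.185) and at 0.95 in DESeq2 (adjusted p = 0.0366), below the size needed for a call. Its receptor *Plaur* was at -0.59 ± 0.23 (adjusted p = 0.607 by edgeR) and lower in all 3 pairs. Activator and receptor thus had estimates of opposite sign. Both genes, unlike most members, were higher in batch 2, by 3.12 and 1.94 on the log2 scale.

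The remaining named partners did not pass the unadjusted threshold. The scaffold gene *Ahnak*, whose product binds the annexin A2 and S100A10 complex, was at -0.30 ± 0.22 (SE) by edgeR and *Myh9*, the myosin heavy chain that S100A4 binds, at -0.39 ± 0.23, each below 0 in all 3 pairs. *Cacybp*, the calcyclin-binding partner of S100A6, was at 0.26 ± 0.22, above 0 in all 3 pairs. The S100 receptor genes *Ager* and *Tlr4* were at 0.39 ± 0.52 and 0.09 ± 0.35, with pairs of both signs.

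**Figure D5:**
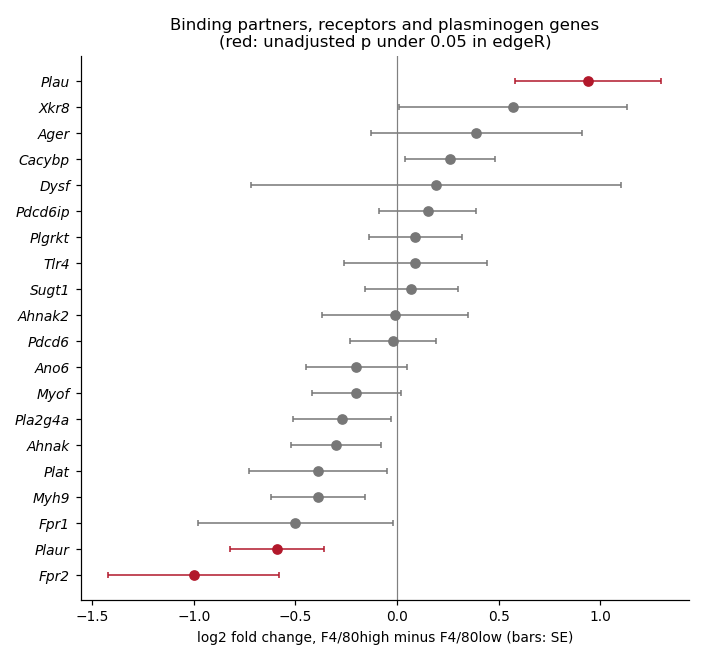
Log2 fold change between F4/80high and F4/80low with its SE by edgeR for 20 partner, receptor and plasminogen-system genes, in order of the estimate, with those at an unadjusted p under 0.05 in red. *Plau* is the only red point above 0, at 0.94, and *Plaur* and *Fpr2* are below 0, at -0.59 and -1.0.

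Among the 5 genes whose pattern was most like the mean of the 9 members, by Pearson's r over the 6 libraries after removal of the batch difference, were *Maged1* (0.998), *Trabd* (0.994), *Klf9* (0.994) and *Ccni* (0.988), out of 4856 genes outside both families whose mean log2 CPM reached 5. With the batch removed, the member mean was 6.99, 7.12 and 6.85 log2 CPM in F4/80high, against 7.08, 7.38 and 7.44 log2 CPM in F4/80low. When the replicate number was removed in place of the batch difference, 0 of the 5 genes were among the most similar, so the list does not hold under the pairing. The points share libraries and batch removal, and the log2 fold changes of these 4 genes were -0.63 to -0.17.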

How the data were processed

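Bulk RNA-seq libraries of sorted F4/80high and F4/80low TAMs (3 each) were analysed. The authors deposited raw read counts per gene, with gene lengths, made with their sequencing center's own pipeline, whose aligner, counter, build and strand setting are not given in the sources used here. Genes were matched by ID to GENCODE M21. Protein-coding genes that summed to 10 counts or more (14630) were fitted in R 4.3.3 with edgeR 4.0.16 (quasi-likelihood test, TMM, batch and subset terms), with DESeq2 1.42.0 as an alternative and limma 3.58.1 for batch removal. A call needed a p under 0.05 after Benjamini-Hochberg adjustment and a log2 fold change beyond 1 in either direction. Log2 CPM used a prior count of 2.

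Replicates of one number were taken as one experiment. Over 10067 genes, the libraries of replicates 1, 2 and 3 deviated together from their subset means (r = 0.745, 0.729 and 0.907). The batch difference was left in these deviations, and libraries of unlike number were not compared. The r values therefore do not show that libraries of one number share an experiment. Depth was 16045281 to 43604373 counts, and no interval is given for counting error. The members and lists were chosen with earlier results of these data known. The named genes were the members, all other annexin and S100 genes, up to 6 partners with the smallest p plus 6 preset ones, *Adgre1* and the 5 genes most like the members, of which some are not reported here. The model steps were tested on simulated data.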

Additional observations from a re-analysis of the deposited data

How the results depend on the processing

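Limits are 3 libraries a subset, a batch held by 1 experiment, and few counts for *S100a4*. The count of members called between subsets was 0 under every alternative, save 1 (*S100a11*) in DESeq2 with the replicate block. The 2 members at an unadjusted p under 0.05 became 4 with the replicate block in edgeR and DESeq2 and with library size alone and the block, 1 with library size alone, 0 with no batch term, 0 without replicate 3 of both subsets, and 0 to 4 with 1 library left out (0 without F4/80high or F4/80low replicate 3, 4 without F4/80high replicate 1). The median log2 fold change stayed between -0.50 and -0.28. Other annexin and S100 genes called went from 0 to 2 with the replicate block in edgeR and DESeq2 and with library size and the block, and to 1 with RLE and the block, and partners from 0 to 1 with the block in DESeq2. Between batches, 7 members called became 4 with DESeq2 and 4 with RLE size factors, 8 with library size alone, 8 with all biotypes, and 2 to 6 with 1 library left out. Signs turned for *Anxa3* and *Anxa4* without F4/80high replicate 2, with ranges of -0.19 to 1.07 and -0.11 to 0.60 over the libraries left out. *Anxa5* was at 0.08 with no batch term, 0.02 with library size alone, 0.03 with that and the block, 0.01 with all biotypes, 0.13 without replicate 3 of both subsets and from -0.22 to 0.13 with 1 library left out. The *S100a10* to *Anxa2* difference was 0.301 with the replicate block and -0.160 to 0.656 with 1 library left out. By CPM, 4 of 9 members kept their place in the order, and when the replicate number was removed instead of the batch, 0 of the 5 most similar genes were shared. The causes were not tested. The block combined with another scaling, the biotype of the deposited tables and TPM over protein-coding genes were chosen after seeing the data.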
